A study of Mus musculus with 41 samples.

Results

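Plasma proteins of the acute-phase response other than the serum amyloids were followed here at the mRNA level in mouse lung and liver after inhalation of titanium dioxide nanoparticles (nanoTiO2): the orosomucoids Orm1 and Orm2, the pentraxins Crp and Apcs, the inter-alpha-trypsin inhibitor heavy chains Itih3 and Itih4, the mannose-binding lectins Mbl1 and Mbl2, and the lipopolysaccharide-binding protein Lbp. The members were the spots of the mRNA arrays whose gene name was one of these symbols, which gave 9 genes with 1 probe and 1 spot each, of 27962 gene names, 41174 probes and 43379 spots. All mice were female C57BL/6 (C57BL/6BomTac in the study's methods). The exposed mice inhaled 40 mg nanoTiO2/m3 for 1 h per day on 11 days and the controls breathed filtered air, and tissue was taken 5 days after the last exposure. Per the study's methods the females had been time-mated and had not conceived, and the labels give age only as equivalent to GD4. Lung RNA came from 7 exposed and 6 control mice and liver RNA from 7 exposed and 8 control mice, 28 arrays of individual animals in all. On each array the mouse RNA carried Cy5, and a universal reference RNA pooled from mouse cell lines carried Cy3. Every value is a log2 ratio of sample over reference after background correction and normalisation. A value of 0 is the usual ratio of spots of like brightness on that array.

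The acute-phase response is the change in plasma proteins that follows infection or injury. Most of these proteins are made by hepatocytes, whose genes for them are switched on by interleukin 6 and interleukin 1 through STAT3, C/EBP and NF-kB, and the lung epithelium and macrophages can make some of them locally. In the mouse Apcs is a major acute-phase pentraxin and Crp responds weakly, the reverse of the human situation. Orosomucoid is a carrier glycoprotein that dampens inflammation, mannose-binding lectins coat microbes and start the lectin pathway of complement, the inter-alpha-trypsin inhibitor heavy chains bind hyaluronan in the matrix, and Lbp hands bacterial lipopolysaccharide to Cd14.

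Several of these genes are close neighbours, and in the coordinates of the lung files (build mm7) the probes of Orm1 and Orm2 lay on chromosome 4, those of Crp and Apcs on chromosome 1, and those of Itih3 and Itih4 side by side on chromosome 14. The coordinates of 6 probes spanned the 60 bases of the probe itself, and those of Orm1, Mbl1 and Lbp spanned 608, 2587 and 3543 bases, so these 3 probes crossed an intron. Probe sequences are shown for Itih4, the member called in the lung, and for Lbp, also well above background with little spread in exposed lungs. They are also shown for the orosomucoid pair, whose mRNAs are close copies and whose probes may not fully separate them. The Itih4 probe is at chr14:28326483-28326542, the Lbp probe at chr2:158069296-158072838, the Orm1 probe at chr4:62779145-62779752 and the Orm2 probe at chr4:62797641-62797700, all in the forward direction.
Itih4: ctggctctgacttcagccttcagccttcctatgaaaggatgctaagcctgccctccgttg
Lbp: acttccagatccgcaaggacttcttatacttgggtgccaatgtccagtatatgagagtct
Orm1: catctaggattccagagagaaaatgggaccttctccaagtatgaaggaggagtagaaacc
Orm2: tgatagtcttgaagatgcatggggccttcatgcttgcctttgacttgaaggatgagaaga

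Promoter windows of 250 bases before the start site were read from RefSeq (GRCm38.p6) for 7 of the 9 members. They are shown for the neighbours Itih4 (chr14:30886226-30886475, forward strand) and Itih3 (chr14:30923588-30923837, reverse strand). Itih4 was called in the lung and Itih3 was not, with differences of 0.54 and 0.46 that were not tested against each other. Windows are also shown for the lectins Mbl1 (chr14:41151206-41151455, forward strand) and Mbl2 (chr19:30232678-30232927, forward strand), and for Orm2 (chr4:63362199-63362448, forward strand). Capitals mark matches, on either strand, to the C/EBP letters TTGCNNAA, the STAT letters TTCNNNGAA, the acute-phase element CTGGGAA and the letters GTTNNTNAT, which are part of the site of HNF1, a factor of liver cells.
Itih4: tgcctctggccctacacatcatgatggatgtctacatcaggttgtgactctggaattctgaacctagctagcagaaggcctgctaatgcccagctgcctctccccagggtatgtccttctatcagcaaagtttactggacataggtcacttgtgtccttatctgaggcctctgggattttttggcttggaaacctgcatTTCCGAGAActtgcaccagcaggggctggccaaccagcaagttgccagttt
Itih3: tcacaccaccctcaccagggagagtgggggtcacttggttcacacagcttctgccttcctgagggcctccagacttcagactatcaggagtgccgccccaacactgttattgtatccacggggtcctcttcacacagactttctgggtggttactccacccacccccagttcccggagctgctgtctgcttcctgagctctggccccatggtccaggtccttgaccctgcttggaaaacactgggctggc
Mbl1: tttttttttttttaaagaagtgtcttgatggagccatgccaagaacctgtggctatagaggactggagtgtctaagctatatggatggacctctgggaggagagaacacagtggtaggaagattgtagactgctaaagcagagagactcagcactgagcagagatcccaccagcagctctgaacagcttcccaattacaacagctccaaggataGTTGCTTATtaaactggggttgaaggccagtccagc
Mbl2: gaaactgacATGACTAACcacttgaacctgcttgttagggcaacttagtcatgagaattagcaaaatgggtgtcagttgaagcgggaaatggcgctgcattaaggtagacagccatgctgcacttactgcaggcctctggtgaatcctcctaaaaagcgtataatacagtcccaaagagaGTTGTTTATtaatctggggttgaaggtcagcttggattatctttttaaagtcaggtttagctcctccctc
Orm2: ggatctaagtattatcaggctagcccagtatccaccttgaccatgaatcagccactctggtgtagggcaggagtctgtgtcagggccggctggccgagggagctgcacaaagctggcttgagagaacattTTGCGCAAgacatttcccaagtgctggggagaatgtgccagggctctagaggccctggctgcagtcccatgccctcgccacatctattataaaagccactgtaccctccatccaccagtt

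The STAT letters stood 51 to 43 bases before the start of Itih4 and also in the window of Apcs, 2 of 7 members, and in 7.02% of all 32851 promoter windows. The C/EBP letters were found in Orm2 alone among the 7, at 120 to 113 bases, and in 9.56% of all windows, and the acute-phase element was found in Apcs alone and in 9.1% of all windows. The HNF1 letters were found in Crp, Apcs, Mbl1 and Mbl2, 4 of 7, and in 8.65% of all windows. No match to any of these letters was found in Itih3, which says only that they are not in this window. Mbl1 and Mbl2 shared a run of 13 bases (ctggggttgaagg) just after the HNF1 letters. These matches are descriptions of sequence and were not tested as binding sites.

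Both tissues matched their labels. Of 26 hepatocyte markers all 26 were well above background on every liver array, and 9 alveolar type 2 markers had a mean log2 ratio of 3.62 to 3.86 in lungs and -0.07 to 0.16 in livers. Slides held 2 to 4 arrays, with exposed mice at the first positions and controls at the last, so position on the slide and exposure cannot be told apart, and the fourth lung slide held 2 exposed mice only. Each tissue was read with its own version of the scanner software, so tissue and scan cannot be told apart either.

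In the lung, 8 of the 9 genes had a higher mean in exposed than in control mice and 1 of them, Itih4, passed the test across all probes (limma, Benjamini-Hochberg adjusted p under 0.05). Across the array 50.7% of probes had a higher mean in exposed lungs and 0.221% of probes passed, 91 of 41172. The median difference of the 9 members was 0.37 on the log2 scale, beside 0.0012 for all probes. Without adjustment 5 members had p under 0.05, beside 7.08% of all probes. The sign turned for Mbl1 (-0.04) when the background model was fitted on all spots, and for Apcs (-0.45) with the scanner software's processed signals. In Cy3, the reference channel, Orm1, Orm2, Mbl1, Mbl2, Crp and Apcs were well above background on 0 of 13 lung arrays. The size of their lung ratios therefore depends on how background was handled. For Orm2 the difference was 0.52 here and 1.61 with the processed signals (limma adjusted p = 0.629). Because whole tissue was measured, more cells of a type and more RNA per cell cannot be told apart.

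**Figure D1:**
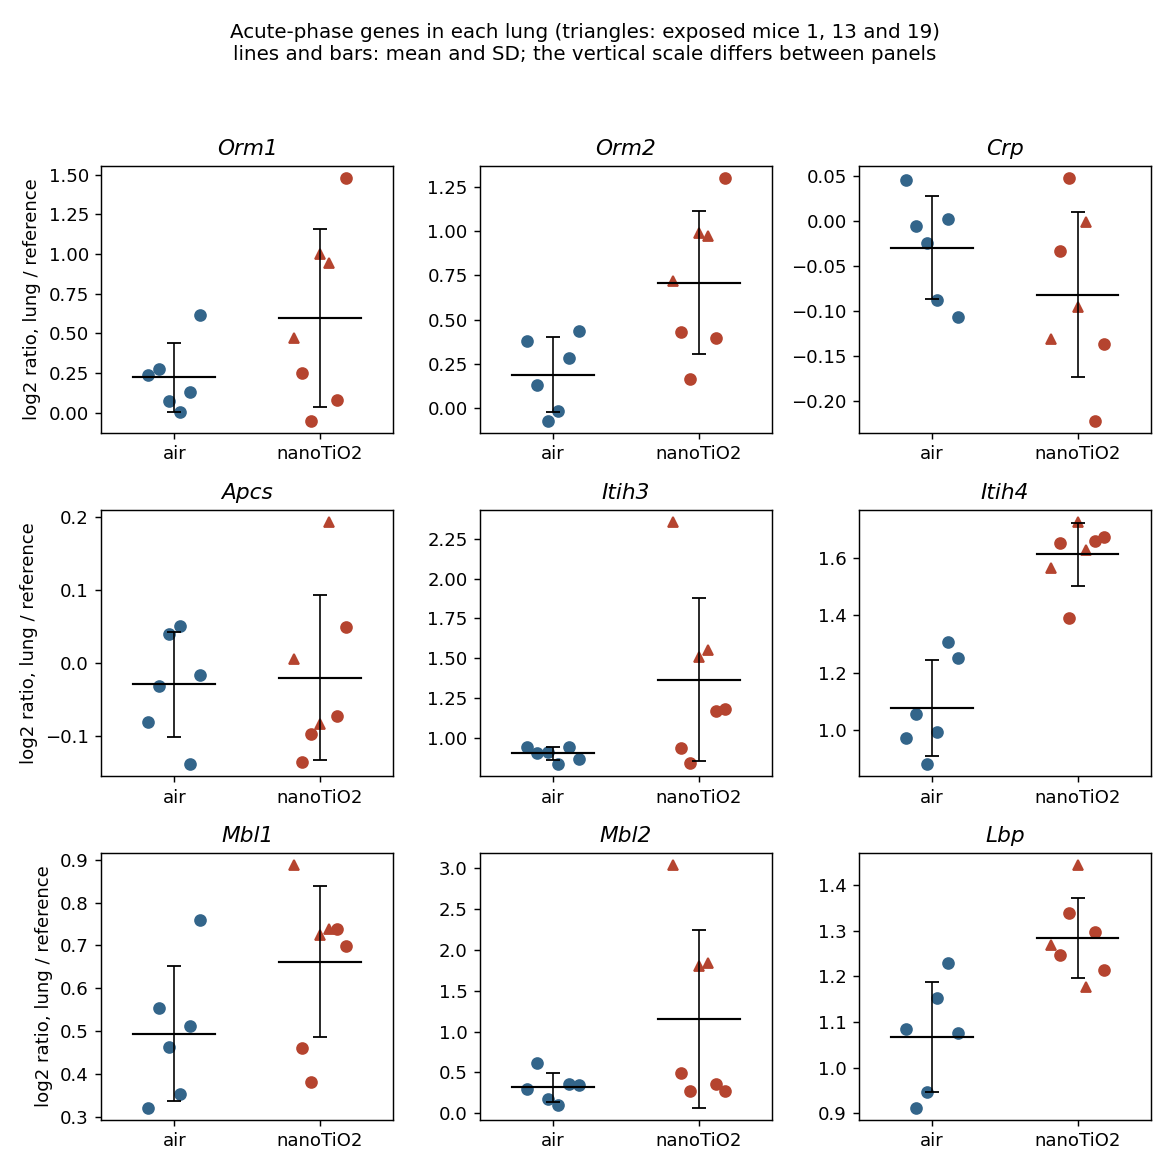
Log2 ratio of sample over reference for the 9 acute-phase genes in each of 6 control (air) and 7 exposed (nanoTiO2) lungs. Each point is 1 mouse, lines and bars are the mean and SD, and triangles mark exposed mice 1, 13 and 19; all exposed lungs lie above all controls for Itih4, while for Mbl2 the triangles stand apart from every other lung.

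Itih4, a heavy chain homologue cleaved by kallikrein, was the one member whose groups did not overlap in the lung. Its log2 ratio was 0.88 at the lowest, 1.03 at the median and 1.31 at the highest in control lungs, and 1.39, 1.65 and 1.73 in exposed lungs. Every exposed lung was above every control lung, a pattern seen in 0.282% of all probes. The means were 1.61 ± 0.11 (SD, n = 7) and 1.08 ± 0.17 (SD, n = 6), a difference of 0.54 ± 0.07 (SE) or 1.45-fold (limma adjusted p = 0.00261). An exact two-sided permutation test over the 1716 splits of the 13 lungs gave p = 0.000583, the smallest it allows. The difference was seen on all 3 slides that held both groups, with values of 0.40 to 0.60. The reference channel of the same spot was also brighter in exposed lungs, by 0.45 on the log2 scale, although the reference RNA was the same on every array. Its limma p was 6.22e-05 without adjustment and 0.32 adjusted over all probes. For the other members this channel differed between the lung groups by -0.02 to 0.06. In the Cy5 channel alone the difference of Itih4 was 0.91 (limma adjusted p = 0.00163), so the ratio gave a smaller difference than the sample channel by itself. The part of the reference channel in the result was not tested. The call was lost with the background model fitted on all spots (0.15, adjusted p = 0.838) and with median centring in place of loess (0.56, adjusted p = 1).

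The other heavy chain, Itih3, was spread widely among exposed lungs. Its log2 ratio was 0.83 to 0.94 in control lungs with a median of 0.91, and 0.84 to 2.36 in exposed lungs with a median of 1.18. Mice 1, 19 and 13 held the 3 highest values, 2.36, 1.55 and 1.51, mice 20 and 23 were also above every control, and mice 7 and 12 lay within the controls. The difference of 0.46 ± 0.18 (SE) did not pass (adjusted p = 0.634). Of the 9 other genes measured for the inter-alpha-trypsin inhibitor complex and its hyaluronan partners, none passed in the lung (limma, 2 without adjustment) and 6 were higher in exposed mice, with a median of 0.06. The lowest p was that of Itih1, another heavy chain, with a difference of 0.23 (limma adjusted p = 0.111), followed by Ambp, which encodes the bikunin light chain, at 2.30-fold (adjusted p = 0.653).

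Mbl2, one of the mannose-binding lectins, was spread most widely among exposed lungs (SD 1.08, n = 7). Mbl2 had log2 ratios of 0.11 to 0.62 in control lungs with a median of 0.32, and 0.27 to 3.03 in exposed lungs with a median of 0.50. Exposed mice 1, 19 and 13 reached 3.03, 1.84 and 1.80, and the other 4 exposed lungs, 0.27 to 0.50, lay within the control range. Mbl2 therefore had the largest mean difference of the 9 genes, 0.84 ± 0.39 (SE), with an adjusted p of 0.704. Mbl1 ran from 0.32 to 0.76 (median 0.49) in controls and from 0.38 to 0.89 (median 0.73) in exposed lungs, and 1 exposed lung, mouse 1, exceeded every control. Its difference of 0.17 ± 0.09 (SE) did not pass (adjusted p = 0.719). Of 11 genes measured for the lectin pathway and related collectins none passed in the lung (limma, 2 without adjustment), 9 were higher and their median difference was 0.03. The lowest p values there were those of the complement proteins C2 (difference 0.22, limma adjusted p = 0.435) and C4b (0.24, adjusted p = 0.701), both cleaved by the lectin pathway's proteases.

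The orosomucoids had a higher mean in exposed lungs, with another order of mice, and did not pass the test. Orm2 had log2 ratios of -0.07 to 0.43 in control lungs (median 0.20) and 0.16 to 1.30 in exposed lungs (median 0.72), and Orm1 0.00 to 0.62 (median 0.18) and -0.05 to 1.48 (median 0.47). The highest lungs were mice 23, 13 and 19, in that order, for both genes. Mouse 1 came next for Orm2, while for Orm1 a control lung, mouse 34 at 0.62, lay above mouse 1 at 0.47, and the groups overlapped. The difference was 0.52 ± 0.16 (SE) for Orm2 (limma adjusted p = 0.43) and 0.37 ± 0.21 (SE) for Orm1 (adjusted p = 0.745). Orm2 was well above background on 7 of 7 exposed and 4 of 6 control arrays, and Orm1 on 6 of 7 and 4 of 6.

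Lbp, the lipopolysaccharide carrier, differed little but evenly. Its log2 ratio was 0.91 to 1.23 in control lungs (median 1.08) and 1.18 to 1.44 in exposed lungs (median 1.27). Of the exposed lungs 5 lay above every control, and the lowest, mice 19 and 23, lay within the control range. The difference was 0.22 ± 0.06 (SE) or 1.16-fold, with a limma adjusted p of 0.261, and the exact permutation p was 0.00291. Lbp passes lipopolysaccharide to Cd14, and Cd14 was the 1 gene of 9 measured in its recognition pathway to pass in the lung, higher by 0.53 or 1.44-fold (adjusted p = 0.0288). The receptor Tlr4 (difference -0.02, adjusted p = 0.93) and its partner Ly96 (-0.03, adjusted p = 0.978) did not pass, and the median of the 9 was -0.02.

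The pentraxins were not well above background in nearly all lungs. Crp was well above background in Cy5 on 0 of 13 lung arrays, with log2 ratios of -0.11 to 0.04 in controls (median -0.01) and -0.22 to 0.05 in exposed mice (median -0.10). Apcs was well above background on 1 exposed array and on 0 of 6 control arrays, with log2 ratios of -0.14 to 0.05 (median -0.02) and -0.13 to 0.19 (median -0.07). At this brightness a difference between groups was not detectable.

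Taking each member alone with the exact two-sided permutation test, 4 of the 9 had p under 0.05 in the lung, beside 6.88% of all probes. These were Itih4, Lbp, Orm2 (exact permutation p = 0.0192, 4 of 7 exposed lungs above every control) and Itih3 (exact permutation p = 0.0303, 5 of 7), and these p values are not adjusted for the number of tests.

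Among exposed lungs, the mice with high Mbl2 and Itih3 also had high levels of genes that mark hepatocytes. The mean log2 ratio of 26 hepatocyte markers was 2.06 in mouse 1, 1.44 in mouse 19 and 1.34 in mouse 13, against 0.56 to 0.77 in the other 4 exposed lungs and 0.46 to 0.82 in controls. Of the 26 markers, 16 were higher in each of these 3 lungs than in every other lung, and the rest were not. The 3 lungs were picked by the mean of these same markers, so this count describes that choice and tests nothing. All 26 were well above background in mouse 1, 25 in mouse 19 and 24 in mouse 13, against 15 to 19 in the other lungs, and their summed Cy5 signal was 4661 to 29398 in exposed lungs and 5149 to 6570 in controls. In livers the sum was 1957460 to 2424210. As a list, 25 of the 26 were higher in exposed lungs and none passed the test (limma, 9 without adjustment), with a median difference of 0.39. The part of these markers in the differences of Mbl2 and Itih3 was not tested.

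**Figure D2:**
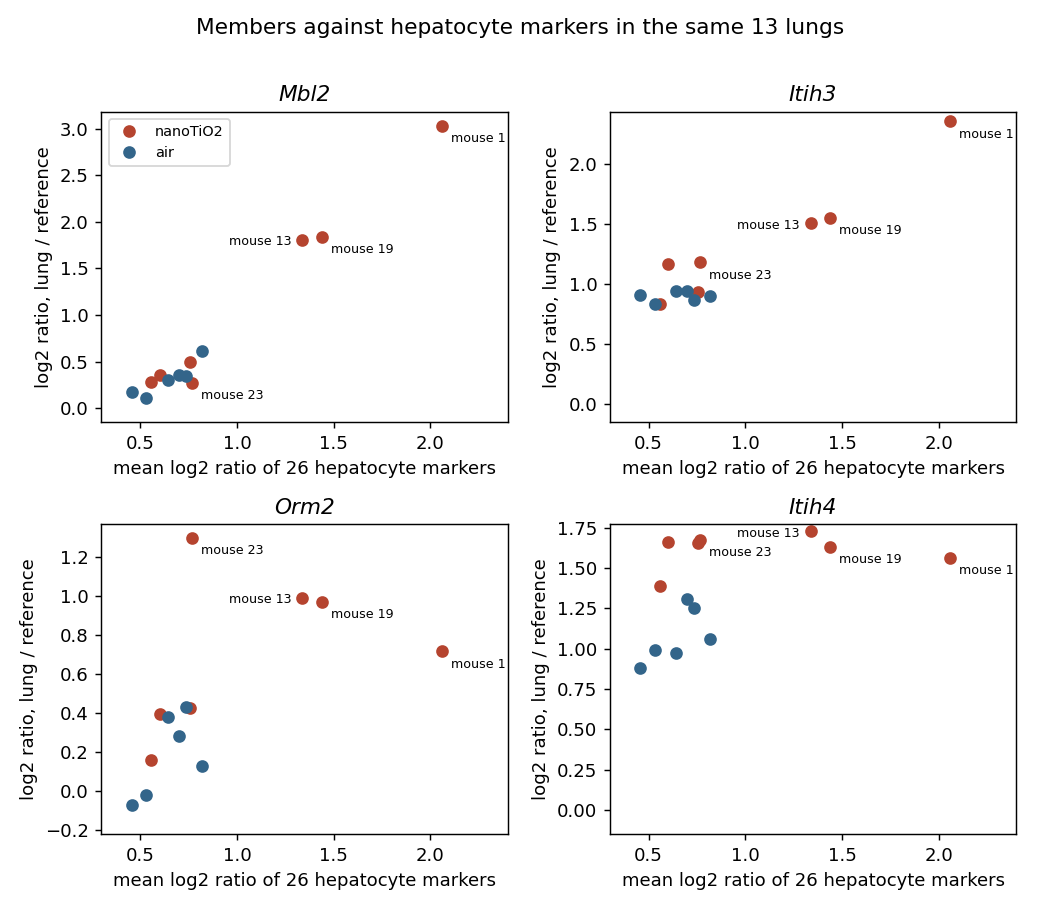
Log2 ratio of Mbl2, Itih3, Orm2 and Itih4 (vertical) against the mean log2 ratio of 26 hepatocyte markers (horizontal) in the same 13 lungs, 1 point per mouse. Mbl2 and Itih3 are highest in mice 1, 19 and 13, where the markers are highest, and Orm2 is highest in mouse 23. Itih4 in exposed mice lies at 1.39 to 1.73, at marker means of 0.56 to 2.06.

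The 9 genes differed in how they stood in these lungs. Without mice 1, 13 and 19, the mean of the other 4 exposed lungs exceeded that of controls by 0.03 for Mbl2, 0.13 for Itih3 and 0.08 for Mbl1. It did so by 0.52 for Itih4, 0.38 for Orm2, 0.22 for Orm1 and 0.21 for Lbp. Mice 1, 13 and 19 held the highest values of Mbl2 and Itih3, so a smaller difference for these genes followed from leaving them out. The part of the hepatocyte markers in these differences was not tested. Mouse 23 held the highest orosomucoid values of the other 4 exposed lungs. Without it too, the difference of the other 3 exposed lungs was -0.13 for Orm1 and 0.14 for Orm2, against 0.49 for Itih4 and 0.23 for Lbp. Mouse 23 was picked as the highest, so the orosomucoid fall followed from that choice. With 1 array at a time left out of all 13 lungs, the difference was 0.23 to 0.48 for Orm1 and 0.42 to 0.61 for Orm2. For Itih4 mice 1, 13 and 19 lay at 1.56 to 1.73 and the other 4 exposed lungs at 1.39 to 1.67, all above the highest control. Its difference was 0.54 with all exposed lungs and 0.52 without mice 1, 13 and 19. With 4 exposed lungs left, its adjusted p was 0.0792, no member passed and 39 probes in all did. Among the genes outside the set whose values over the 13 lungs, taken as deviations from the group means, were most like those of Mbl2 were Cyp2d26 (Pearson r = 0.998) and Es1 (0.992), and these correlations lean on the same 3 lungs.

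Other acute-phase genes of the lung are given for comparison. Of 33 measured proteins of the response outside the 9, 32 were higher in exposed lungs and 6 passed, none lower, and their median difference was 0.33. The 6 were Saa3 (2.23, adjusted p = 0.000306), the siderophore-binding Lcn2 (1.70, adjusted p = 2.09e-08), Saa1 (1.19, adjusted p = 0.0103), the metalloreductase Steap4 (0.70, adjusted p = 0.00477), complement C3 (0.55, adjusted p = 0.00734) and Cd14, named above. Of 13 negative acute-phase proteins, whose liver production falls in inflammation, 13 were also higher in exposed lungs and none passed (limma, 4 without adjustment), with a median of 0.36. The lowest p values there were those of transferrin, Trf (0.19, limma adjusted p = 0.464), and fetuin-A, Ahsg (0.88, adjusted p = 0.602). Ahsg, Alb1, Ttr, Apoa2, Gc and Serpinc1 are also on the list of hepatocyte markers, so these lists are not separate counts. Of 27 inducers of the response, none passed (limma, 3 without adjustment) and 19 were higher, with a median of 0.05. The lowest p values among them were those of Nfkbiz, a regulator of NF-kB targets (0.39, limma adjusted p = 0.106), and Tnf (0.26, adjusted p = 0.313), while Il6 stood at 0.06 (adjusted p = 0.882).

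Markers of other cell types were also measured as lists. Lcn2 alone passed of 13 neutrophil genes, with a median of -0.09. Of 13 macrophage and monocyte genes Marco passed as higher (0.57, adjusted p = 0.00932) and the eosinophil-associated ribonucleases Ear1 (-0.48, adjusted p = 0.000618) and Ear11 (-0.45, adjusted p = 0.0288) as lower. Marco, shared with the list of 10 Kupffer and stellate cell genes, was also the 1 to pass there. None passed (limma; without adjustment 1, 0, 0 and 1) of 9 alveolar type 2, 9 club cell, 8 endothelial and 9 heart muscle genes, with medians of -0.01, -0.05, -0.07 and 0.41. Of the heart muscle genes 8 of 9 were higher in exposed lungs, and their mean ran from 2.29 to 3.55 in exposed and from 1.17 to 3.43 in control lungs, and their part in the results was not tested.

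In the liver, no member and no probe on the array passed the test for exposure, 0% of 41174. Of the 9 members 7 were lower in exposed livers, beside 51.7% of all probes, but the sign turned for 6 of these with the background model fitted on all spots and for 4 with median centring. The median difference was -0.10, beside -0.0023 for all probes. Without adjustment 2 members, Mbl2 and Orm2, had limma p under 0.05, beside 2.43% of all probes. In the exact permutation test 1 member, Itih4, had p under 0.05 (exact permutation p = 0.0499), beside 2.96% of all probes.

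Mbl2 ran from 6.34 to 6.98 in control livers (median 6.69) and from 6.10 to 6.73 in exposed livers (median 6.44). Orm2 ran from 6.16 to 6.69 (median 6.47) and from 6.04 to 6.41 (median 6.22), and Itih3 from 6.98 to 7.70 (median 7.42) and from 6.91 to 7.51 (median 7.14). Each group overlapped the other for all 3 genes. The differences were -0.27 ± 0.12 for Mbl2 (SE), -0.19 ± 0.09 for Orm2 and -0.23 ± 0.11 for Itih3, all with a limma adjusted p of 1. Exposed livers were lower on all 4 slides for these 3 genes, and also for Itih4 and Mbl1. For Orm2 the smallest of these slide differences was -0.0021. The share of all probes with this pattern was not counted, so whether these genes stand out in it is not known. In the Cy5 channel alone the differences of Mbl2, Orm2 and Itih3 were -0.02, -0.11 and -0.09.

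Itih4 was nearly constant in liver, from 2.99 to 3.28 in controls (median 3.15) and 2.86 to 3.14 in exposed mice (median 3.03). The remaining members overlapped as widely. Orm1 lay at 5.97 to 6.53 and 5.83 to 6.41, Mbl1 at 5.40 to 5.63 and 5.23 to 5.61, Crp at 3.15 to 3.58 and 2.99 to 3.83, and Lbp at 1.77 to 2.14 and 1.65 to 2.39, in controls and exposed livers. Over these 5 genes and Apcs the difference ran from -0.10 for Orm1 to 0.02 for Crp, and the 95% intervals, which are not adjusted for the number of genes, were -0.20 to 0.01 for Itih4, -0.30 to 0.09 for Orm1, -0.19 to 0.24 for Crp and -0.17 to 0.21 for Lbp.

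Apcs, the mouse's main acute-phase pentraxin, had the widest spread of the 9 in control livers, 3.27 to 4.52 (median 3.92), and 3.39 to 4.36 (median 3.74) in exposed livers. The spread followed the slide. On liver slides 1 and 3 the 7 arrays, exposed and control, lay at 4.03 to 4.52, and on slides 2 and 4 the 8 arrays lay at 3.27 to 3.74. In this ratio the slides did not overlap while the groups did. The Cy3 reference also lay apart, at 6.33 to 6.62 on slides 1 and 3 and 6.76 to 6.94 on slides 2 and 4. In Cy5 the slides overlapped, at 10.46 to 10.98 and 10.18 to 10.63. The difference between groups within slides was -0.13 to 0.12. The genes most like Apcs over the 15 livers, by deviations from the group means, were Crkrs (Pearson r = 0.958), 1810027L02Rik (0.956) and A530020G20Rik (0.946), given with the slide as a feature that the arrays share.

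No gene of the related lists passed in the liver. Of 33 other acute-phase genes 30 were lower in exposed livers (median -0.13), of 13 negative acute-phase genes 12 (median -0.21), and of 26 hepatocyte markers 26 (median -0.20). Limma p without adjustment was under 0.05 for 14, 8 and 15 of them. Among all probes 51.7% were lower and 2.43% had p under 0.05 without adjustment. These lists are given for the main fit alone, and the liver signs of the members depended on the background model. The negative acute-phase and hepatocyte lists share the genes named for the lung.

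**Figure D3:**
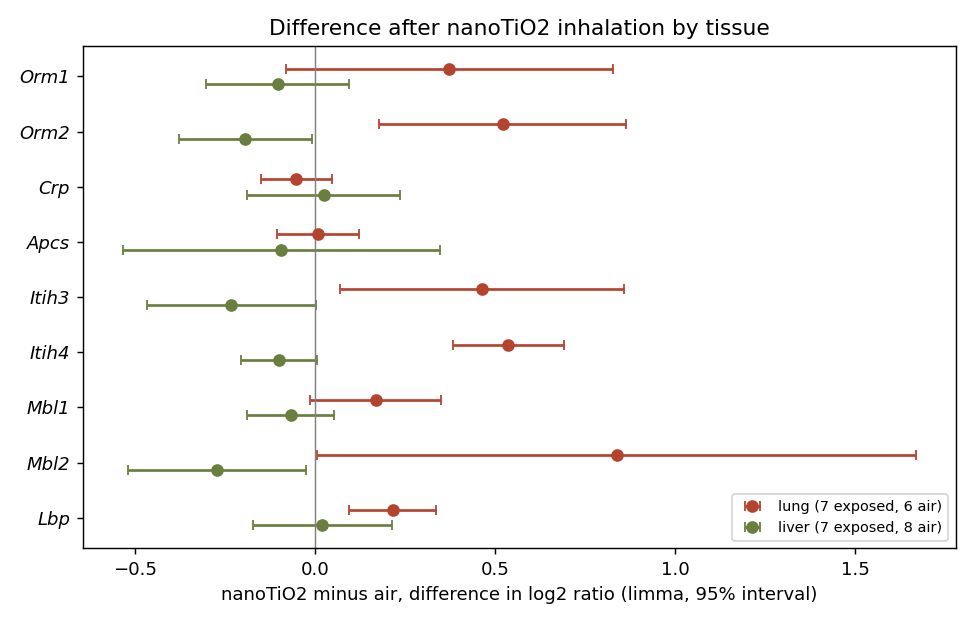
Difference in log2 ratio between exposed and control mice for each gene in lung (7 exposed, 6 control) and liver (7 exposed, 8 control). Points are limma estimates and bars are 95% intervals, not adjusted for the number of genes tested; Itih4 in lung, at 0.54, is the member that passed the adjusted test, and liver values, whose signs depend on the background model, lie between -0.27 and 0.02.

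The lung response exceeded the liver response for Itih4 by 0.64 ± 0.09 (SE, limma adjusted p = 0.000162), and this was the 1 member of 9 to pass the test of the difference itself, beside 0.146% of all probes (60 of 41172). The sign was positive for 8 of 9 members, beside 51.1% of probes, and turned for 6 of them with the background model fitted on all spots. The values were 1.11 for Mbl2 (adjusted p = 0.931), 0.71 for Orm2 (0.252), 0.70 for Itih3 (0.651), 0.48 for Orm1, 0.24 for Mbl1, 0.20 for Lbp, 0.10 for Apcs and -0.08 for Crp (the last 5 with adjusted p of 1). For Itih4 the call was lost with the background model fitted on all spots (0.071, adjusted p = 0.925) and with median centring (0.48, adjusted p = 1). With the mouse as a fixed block over the 12 mice measured in both tissues, Orm2 passed as well, at 0.80 (limma adjusted p = 0.0432), but with the mouse as a random block it did not (0.72, adjusted p = 0.186), and Itih4 passed with both (adjusted p = 0.00528 and 0.000101). Of the related lists, 4 of the 33 other acute-phase genes passed this test.

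All 9 members were higher in control liver than in control lung and all 9 passed, beside 29.6% of all probes passing in that direction. On the scale of the ratio the liver exceeded the lung by 6.51 for Itih3, 6.36 for Mbl2, 6.24 for Orm2, 6.00 for Orm1, 5.02 for Mbl1, 3.94 for Apcs, 3.38 for Crp, 2.06 for Itih4 and 0.92 for Lbp. The standard errors were 0.06 to 0.29 and the limma adjusted p values 4.93e-30 to 3.38e-11. Lbp, with a log2 ratio of 1.07 ± 0.12 in lung (SD, n = 6) and 1.99 ± 0.14 in liver (SD, n = 8), was nearest in level between the tissues. For Crp and Apcs, which were not well above background on any control lung array, only a bound holds, and liver was at least 11.6-fold higher for Crp and at least 23.6-fold higher for Apcs in the normalized Cy5 signal.

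The ratio and the sample channel gave different sizes for this tissue difference. In the Cy5 channel alone the liver exceeded the lung 1114-fold for Mbl2, 416-fold for Itih3 and 39.7-fold for Itih4, where the ratio gave 82.0-fold, 91.0-fold and 4.17-fold. These Cy5 values rest on lung signals well above background on 4 of 6 control arrays for Mbl2 and on 6 of 6 for Itih3 and Itih4. The Cy3 channel, which held the same reference RNA on every array, was itself brighter on liver arrays at these spots, 9.53-fold for Itih4, 4.57-fold for Itih3 (well above background on 2 of 6 control lung arrays) and 1.15-fold for Lbp, beside a median log2 difference of -0.02 over all probes. The other 6 members were not well above background in Cy3 on any control lung array, and there liver arrays were at least 12.6-fold brighter for Mbl2, 2.22-fold for Mbl1, 2.06-fold for Orm2, 1.75-fold for Orm1, 1.53-fold for Apcs and 1.11-fold for Crp. The Cy3 channel was higher on control liver arrays for all 9 members (limma adjusted p of 0.0096 or lower). The share of all probes passing this Cy3 test was not counted, so whether the members stand out in it is not known. For the 6 members just named these p values rest on lung signals that were not well above background. In Cy3 Mbl2, Orm1, Orm2 and Mbl1 were well above background on 0 of 13 lung arrays and on 15 of 15 liver arrays. For Itih4 the reference channel had a mean of 6.80 ± 0.12 in control lungs, 7.19 ± 0.20 in exposed lungs (SD, n = 6 and 7) and 10.05 ± 0.15 in control livers (SD, n = 8), in the same order as its sample channel, 7.88, 8.81 and 13.2. The cause was not tested, and the fold differences between tissues therefore depend on the channel used.

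**Figure D4:**
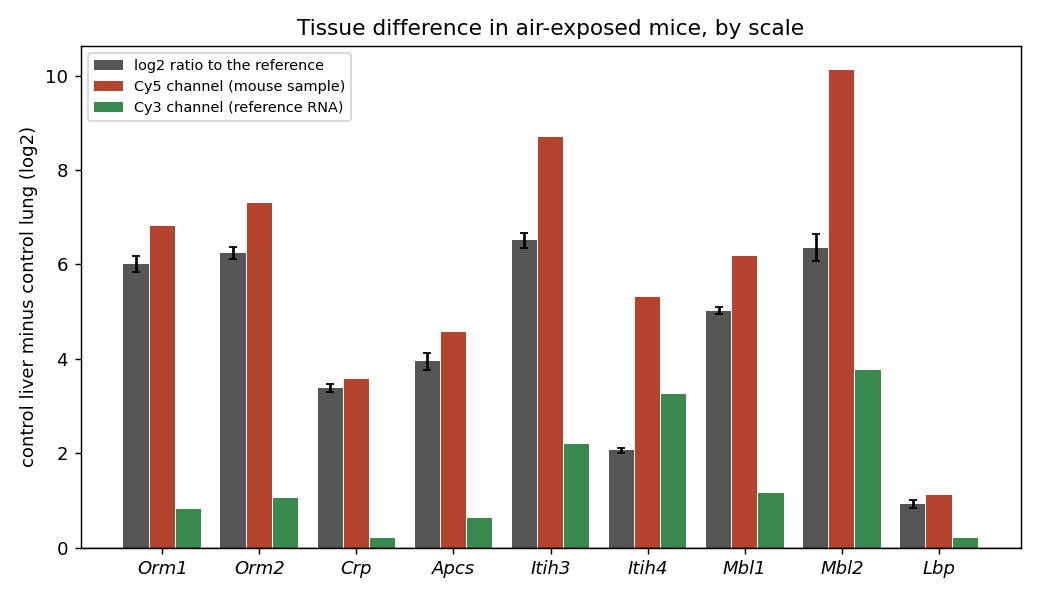
Control liver minus control lung on the log2 scale for each gene, shown for the ratio to the reference (bars with limma SE), for the normalized Cy5 channel of the mouse sample and for the normalized Cy3 channel of the reference RNA (means of 8 livers and 6 lungs). The Cy3 bars of Mbl2, Mbl1, Orm1, Orm2, Crp and Apcs and the Cy5 bars of Crp and Apcs use measured lung means that were not well above background. For Itih4 the Cy3 bar reaches 3.25, and the ratio bars are shorter than the Cy5 bars for all 9 genes.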

How the data were processed

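RNA of 13 lungs and 15 livers, each from 1 mouse, was hybridised to 2-colour Agilent arrays. The deposited scanner files hold the median intensity of each spot and of its local background in both channels, the scanner software's processed intensity, and its outlier, saturation and well-above-background marks. The authors also deposited log2 ratios normalised by LOWESS, which correlated with log2 ratios of the uncorrected intensities at 0.926 to 0.993 per array (column medians -0.042 to -0.022). The microRNA arrays were not used here.

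Background was corrected with normexp (limma 3.58.1, R 4.3.3, offset 50), its model fitted without any spot carrying an outlier mark. Fitted on all spots, the Cy5 background mean fell as low as -609 in lung and -972 in liver, on 3 arrays each, against -8.4 to -4.1. Loess followed within each array. Control spots and marked spots were left out (no member spot was), and spots of a probe were averaged. Between 55.1% and 70.5% of probes per array were well above background. The number of arrays limits the precision.

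Groups were compared with lmFit and eBayes, with p-values adjusted by Benjamini-Hochberg over all probes (threshold 0.05), and single members also by exact two-sided permutation. Lung and liver exposure effects were fitted apart, and the tissue contrasts over all 28 arrays. limma stands in for the MAANOVA permutation test of the study's methods. Channel means and tissue differences by channel were taken after loess and Aquantile normalisation. Exposure differences of a single channel were taken after quantile normalisation of that channel, so they differ in size from differences of those means. An at-least fold sets the liver mean against, per control lung array, the higher of the lowest well-above-background signal and the probe's own. Lung and liver of 12 mice share an animal by their labels, and their deviations from the group means correlated at -0.07 to 0.21 (median 0.08). Text names every member and, per list, the genes that passed or the 2 with the lowest p, at the brightest probe of each gene. Tlr4, Ly96 and Il6 were named after their values were seen. The members and lists were chosen with earlier results of these data known. The fit was tested on simulated data. Alternatives covered background, signal, normalisation, table, filter, slide, mouse and left-out arrays. Leaving out 3 lungs with high hepatocyte markers, the Cy5 channel alone and a wider spot filter were added after seeing the data. One gene that the rule on likeness names is not reported here.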

Additional observations from a re-analysis of the deposited data

Results flagged for a closer look

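One result differed between the tissues by a test of the difference itself. The exposed minus control difference of Itih4 was larger in lung than in liver by 0.64 on the log2 scale (limma adjusted p = 0.000162), with every exposed lung above every control lung and overlapping groups in the liver. The call was lost with the background model fitted on all spots (0.071, adjusted p = 0.925) and with median centring (0.48, adjusted p = 1). Of the 36 sets formed by 9 genes in 4 groups, none held a single array that stood apart from the others of its group by Dixon's test.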

How the results depend on the processing

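Itih4 was called in the lung under 10 of 13 alternatives. With the background model fitted on all spots, median centring, or the lungs of mice 1, 13 and 19 left out, 0 members and 15, 7 and 39 probes were called, and Itih4 stood at 0.15, 0.56 and 0.52 (adjusted p = 0.838, 1 and 0.0792). In the lung Mbl1 turned to -0.043 on all spots, and Apcs to -0.45 with processed signals and -0.034 without the 3 lungs. In the liver 0 probes were called under all 12 alternatives, and signs turned. On all spots Orm1 was 0.72, Orm2 0.58, Apcs 0.78, Itih3 0.21, Itih4 0.082 and Mbl1 0.59. Median centring gave Orm1 0.038, Apcs 0.026, Itih4 0.082 and Mbl1 0.084, and leaving out spots with a marked local background gave Mbl2 0.18. The Cy5 channel alone gave Crp -0.022, Itih4 0.022 and Mbl1 0.0029, and with slide as a block -0.028, 0.039 and 0.036. For lung minus liver, 5, 35, 12 and 35 probes were called on all spots, with processed signals, with median centring and without the 3 lungs, and 0 members on all spots and with median centring. All spots gave Orm1 -0.55, Orm2 -0.29, Apcs -0.77, Itih3 -0.15, Mbl1 -0.63 and Lbp -0.22, and Apcs was -0.27 with processed signals and -0.0088 with median centring. With mouse as a fixed replicate block over 12 mice 2 members were called, Itih4 and Orm2 (0.80, adjusted p = 0.0432), and with mouse as a random replicate block 1 was, with Orm2 at 0.72 (adjusted p = 0.186). Neither block changed another call. By exact permutation 0 lung members had p under 0.05 on all spots and 2 with median centring, and 0 liver members under any of 5 alternatives. The cause was not tested, beyond the pulled background model on all spots. All 9 tissue differences were called under all 11 alternatives (21122 to 27454 probes).

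Leaving out 1 array at a time gave 69 to 93 lung probes and 1 member, with Itih4 at 0.50 to 0.58, 47 to 63 probes and 1 to 2 members for lung minus liver, and 23950 to 24804 probes and 9 members between tissues. Signs turned among left-out arrays for Apcs in lung (-0.026 to 0.029), Crp (-0.053 to 0.088) and Lbp (-0.042 to 0.081) in liver, and Crp (-0.14 to 0.00089) in lung minus liver. Signal over background limits Crp and Apcs in lung.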

Other observations

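In 1 control liver, that of mouse 32, the 13 neutrophil markers had a mean log2 ratio of 1.49, against 0.02 to 0.19 in the other control livers and -0.06 to 0.17 in exposed livers. Among control livers the same liver held the highest value of Orm2 (6.69), Orm1 (6.53) and Crp (3.58) and the lowest of Mbl1 (5.40), each close to its nearest neighbour.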
